A study of Mus musculus with 16 samples.

Results

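The alpha-defensins and other secreted products of Paneth cells were measured by RNA-seq in mouse small-intestinal crypts and organoids with and without Cul4b. The set held 32 genes of the 52636 rows of the crypt table and of the KO-CAG organoid table, and of the 54532 rows of the KO-IEC organoid table. Of these, 22 were the protein-coding genes whose symbol begins with Defa. The other 10 were Lyz1, Lyz2, Mmp7, Ang4, Itln1, Pla2g2a, Copz2, Habp2, Nupr1 and Mptx2. All mice were C57BL/6. KO-IEC mice carried pVillin-Cre with a Cul4b fn/Y allele, so that Cul4b was deleted in the intestinal epithelium. They were compared in crypts (n = 4 each) with WT, which the study defines as Cul4b fn/Y. Organoids grown in Matrigel from WT and KO-IEC crypts formed the second experiment (n = 2 each). The third compared WT organoids with organoids from CAG-CreERT2; Cul4b fn/Y mice after Cre induction with tamoxifen, termed KO-CAG (n = 2 each). Whether the WT organoids of that last experiment carried CreERT2 or received the inducer is not given in the sources used here. Villin is active through the whole intestinal epithelium, so deletion in KO-IEC preceded crypt isolation and organoid culture, whereas in KO-CAG it was induced at a chosen time. The labels give neither the age of the mice nor the segment of small intestine, and sex only through the Y of the genotype, which marks males. They do not say that replicates came from separate animals, so the p-values measure the spread between these samples. In these bulk libraries, fewer Paneth cells and less RNA per Paneth cell cannot be told apart.

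Paneth cells are long-lived secretory cells at the base of small-intestinal crypts, where they lie between Lgr5+ stem cells. Their granules hold antimicrobial proteins, chiefly the alpha-defensins, or cryptdins, which are made as inactive precursors and in mice are cleaved by the matrix metalloprotease Mmp7. Wnt signalling through beta-catenin and TCF factors is known to drive Paneth cell maturation and the transcription of several of these genes. In mice the alpha-defensin genes form a cluster of recent tandem duplicates, so a short read often fits more than 1 copy.

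All 22 Defa genes lay on chromosome 8 between positions 21025545 and 21735471 (GRCm38), and the reading of any single gene depends on how alike the copies are. The last 123 coding bases, which cover the mature peptide and the stop, are printed here for 6 copies from GENCODE M21 transcripts, 5′ to 3′. Capitals mark bases that differ from Defa24 in the first 4 and from Defa22 in the last 2.
Defa24: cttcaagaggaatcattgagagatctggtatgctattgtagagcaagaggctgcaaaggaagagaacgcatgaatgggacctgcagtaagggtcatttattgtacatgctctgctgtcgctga
Defa30: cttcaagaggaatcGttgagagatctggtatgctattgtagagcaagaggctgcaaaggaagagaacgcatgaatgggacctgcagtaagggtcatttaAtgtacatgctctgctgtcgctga
Defa17: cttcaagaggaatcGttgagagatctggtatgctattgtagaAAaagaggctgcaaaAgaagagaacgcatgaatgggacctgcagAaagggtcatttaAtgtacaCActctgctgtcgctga
Defa23: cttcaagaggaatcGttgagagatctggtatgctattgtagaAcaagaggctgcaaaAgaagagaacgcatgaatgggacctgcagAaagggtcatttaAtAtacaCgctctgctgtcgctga
Defa22: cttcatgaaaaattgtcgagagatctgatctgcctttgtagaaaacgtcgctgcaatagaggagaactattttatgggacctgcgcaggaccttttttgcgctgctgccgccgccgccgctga
Defa21: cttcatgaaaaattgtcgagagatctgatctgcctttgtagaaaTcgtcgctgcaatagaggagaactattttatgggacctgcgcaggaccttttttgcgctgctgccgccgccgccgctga
Defa30 differed from Defa24 at 2 bases of this stretch, Defa23 at 7 and Defa17 at 8, while Defa21 differed from Defa22 at 1. Across whole coding sequences, 5 pairs were identical, namely Defa3 with Defa17, Defa2 with Defa33, Defa20 with Defa32, Defa23 with Defa31, and Defa36 with Defa37. Of all 100-base stretches of the transcript, 100% were found in no other transcript for Defa24 (chr8:21734494-21735471, + strand), 99.7% for Defa30 (chr8:21134642-21135598, + strand), 98.9% for Defa26 and 89.0% for Defa29. These 4 were the only alpha-defensins above 85%. For 11 of the 22 the share was under 15%, and for Defa2, Defa31, Defa33 and Defa37 it was 0. Values of those 11 single genes are therefore uncertain, since the handling of reads that fit several copies is not given in the sources used here, and the sum over the family is given beside them.

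The starts of the alpha-defensin genes also share sequence letters. The 150 bases before the RefSeq start are shown for Defa22 and Defa30, with capitals marking ATCAAAG, the core letters bound by TCF/LEF factors, and TATAAA, the TATA box.
Defa22, chr8:21162127-21162276, + strand: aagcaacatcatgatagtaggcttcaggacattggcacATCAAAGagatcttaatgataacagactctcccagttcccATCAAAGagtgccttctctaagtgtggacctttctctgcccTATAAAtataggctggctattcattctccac
Defa30, chr8:21134500-21134649, + strand: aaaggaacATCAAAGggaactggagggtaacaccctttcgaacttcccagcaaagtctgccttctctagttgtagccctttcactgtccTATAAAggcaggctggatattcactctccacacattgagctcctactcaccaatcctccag
In windows from 250 bases before to 50 bases after the start, ATCAAAG was present on either strand in 12 of the 12 Defa promoters with an entry, against 3.73% of 32851 promoters of all genes. TATAAA was present in 11 of the 12, against 13.6% of all promoters. The other motifs searched, also on both strands, were CCAAT (12 of 12, against 37.4%), the E-box CANNTG (12 of 12, against 72.3%), the GATA core AGATAA (0 of 12, against 11.2%) and the core of the interferon-stimulated response element (0 of 12, against 3.44%). The copies descend from common ancestors and are not independent cases, and a match in letters is not evidence of binding.

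The libraries held 7348191 to 16881395 counts, and CPM, the counts scaled to library size, are relative to the TMM-scaled total of the genes that passed the filter on low counts. Cul4b fell from 31.7 to 38.3 CPM in WT crypts to 0.848 to 2.21 CPM in KO-IEC crypts, and its log2 fold change was -5.50 in the organoids of the KO-IEC experiment and -4.02 in those of KO-CAG, so the labels fitted the targeted gene. Crypt libraries fell apart by their mitochondrial ribosomal RNA, the sum of mt-Rnr1 and mt-Rnr2. This was 18.9 to 25.2 CPM in WT replicate 1 and KO-IEC replicates 1 to 3, 834 and 1078 CPM in WT replicate 4 and KO-IEC replicate 4, and 2840 and 2873 CPM in WT replicates 2 and 3. The highest class thus held WT crypts alone. Values within the other 2 classes are given for the alpha-defensin sum, Defa22, Defa24, Defa30, Lyz1, Ang4, Itln1, Mptx2 and Pla2g2a. In the organoids of both experiments the classes were balanced between genotypes.

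A few copies made up most of the alpha-defensin signal, and the same gene led in every library. Defa24 took 34.0 to 46.2% of Defa reads in WT crypts and 39.9 to 55.8% in KO-IEC crypts. In organoids its share was 62.4 to 67.7% in WT and 66.0 to 75.7% in KO-IEC, and 63.7 to 64.1% in WT and 58.3 to 59.9% in KO-CAG. Per kilobase of gene length, Defa24 reached 12787 CPM per kb in WT crypts, ahead of Defa30 at 6098 and Defa22 at 3112 CPM per kb. On the same scale Lyz1, the Paneth cell lysozyme, reached 4331 CPM per kb. In WT organoids of the KO-CAG experiment Defa24 stood at 5836 CPM per kb, Defa30 at 1918 and Defa17 at 442 CPM per kb. Defa21 and Defa22 together took 12.7 to 19.8% of Defa reads in WT crypts but only 3.36 to 3.68% in the WT organoids of the KO-CAG experiment. Levels between crypts and organoids come from tables that were scaled separately, and shares within a library do not depend on that scaling.

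**Figure D1:**
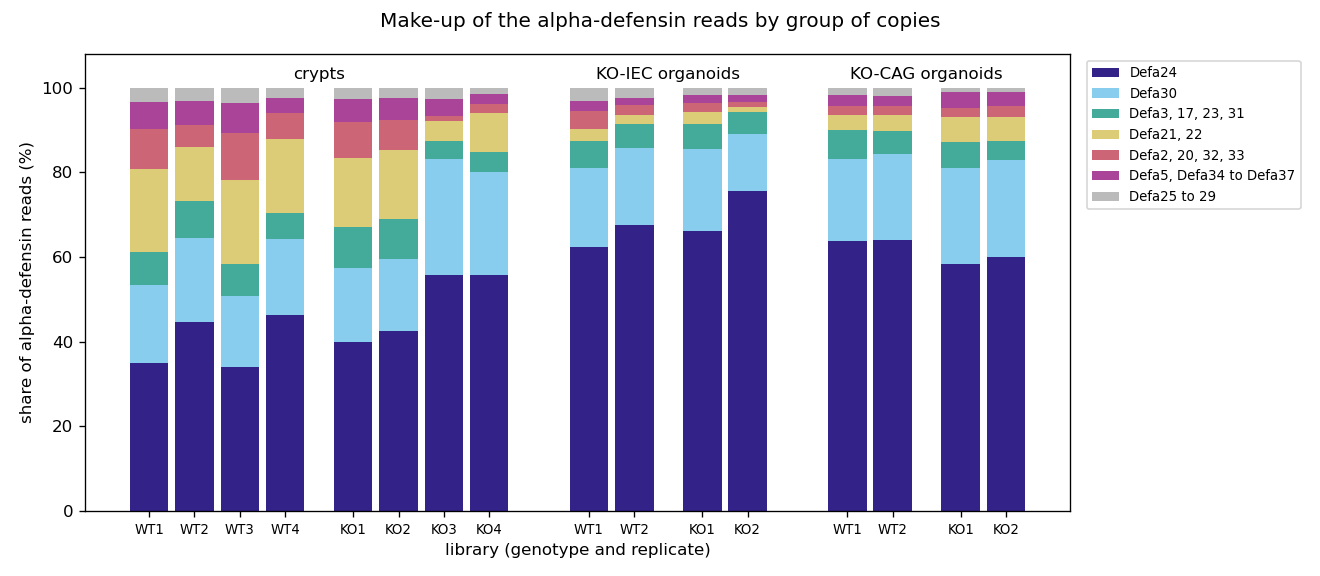
Stacked bars give the share of alpha-defensin reads (%, y axis) that fell on each copy or group of copies in each library (x axis, genotype and replicate). Defa24, at the base, takes 34.0 to 75.7% in every library, and KO crypt replicates 3 and 4 have the largest Defa24 shares among crypts.

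In crypts the Paneth cell products were mostly lower in KO-IEC than in WT, but none passed the test and the spread was wide. Of the 32 genes, 30 passed the filter on low counts (Defa25 and Defa27 did not), and a gene that passes through 1 group alone has to differ between groups. None was called at an adjusted p of 0.05 in the edgeR quasi-likelihood fit, with p-values adjusted after Benjamini and Hochberg, against 6.96% of the 13427 genes tested. At an unadjusted p under 0.05 stood 7 members, a share below the 31.9% of all genes. The log2 fold change was below 0 in 29 of 30 members, against 51.1% of all genes, with a median of -0.92 against -0.01 for all genes. Without KO-IEC replicate 3, 26 of 30 were below 0 with a median of -0.59, and without the 2 WT libraries of the high mitochondrial rRNA class 28 of 30 were, with a median of -0.77. All 20 tested alpha-defensins were below 0, with a median of -1.07. Here and in the organoids the members are not independent cases, since many copies share sequence and most members are made by the same cell type. The genotypes did not overlap in 3 members, Defa32, Lyz1 and Copz2, each lower in KO-IEC, while 8.79% of all genes had this pattern in that direction.

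The summed level of the 22 alpha-defensins was 11117, 8047, 17054 and 17653 CPM in WT crypts 1 to 4. In KO-IEC crypts 1 to 4 it was 11775, 6442, 1285 and 16311 CPM. Replicate 3 of KO-IEC lay far below the other 7 crypt libraries, and of the rest only KO-IEC replicate 2 lay below the WT range. The means were 13468 ± 4665 and 8953 ± 6512 CPM (SD, n = 4 each), a log2 difference of -0.59 between the means. Without KO-IEC replicate 3 the difference was -0.23. Within the mitochondrial rRNA classes the mean of the log2 levels was compared instead, a measure on which a single low library weighs more. This difference was -1.27 within the low class, which holds that replicate and a single WT library. It was -0.11 within the middle class, with 1 library per genotype.

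**Figure D2:**
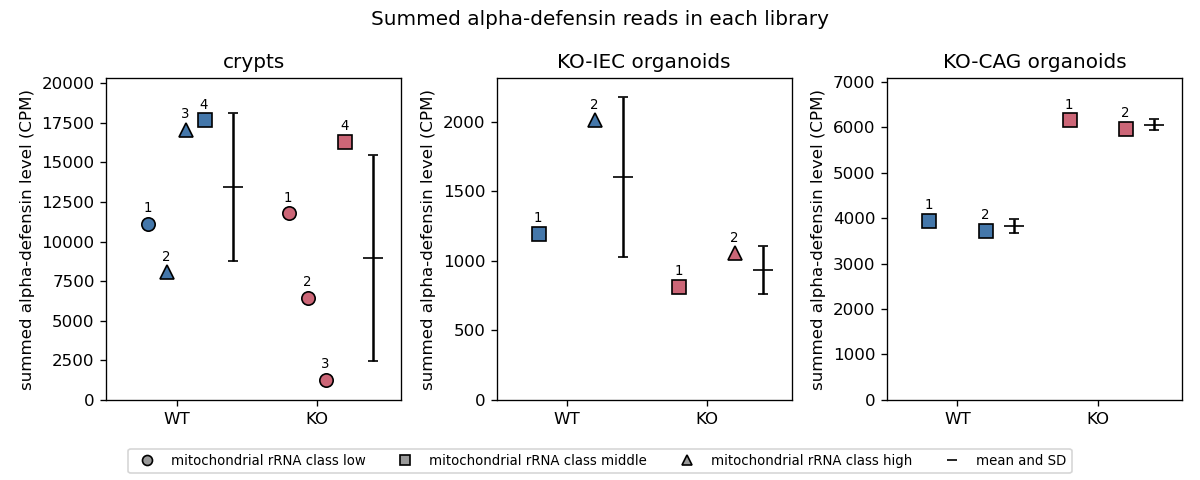
Points give the summed level of the 22 alpha-defensins (CPM, y axis) in each library, numbered by replicate and shaped by mitochondrial rRNA class, for WT and KO in each experiment, with mean and SD beside them. KO crypt replicate 3, at 1285 CPM, sits below all other crypts; in KO-IEC organoids both KO points sit below both WT points, and in KO-CAG organoids both sit above.

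The 2 most abundant alpha-defensins, which also have nearly unique reads, overlapped between genotypes in crypts. Defa24 stood at 3884, 3586, 5803 and 8159 CPM in WT and at 4702, 2743, 718 and 9099 CPM in KO-IEC, and the highest and the lowest library were both KO-IEC. Its log2 fold change was -0.31 ± 0.61 (SE, adjusted p = 0.749), and without KO-IEC replicate 3 it was 0.05. Defa30 had the same pattern, with 1597 to 3182 CPM in WT against 351 to 3960 CPM in KO-IEC (-0.38 ± 0.58, adjusted p = 0.678). The less abundant Defa21 and Defa22 had larger differences with overlapping groups. Defa22 was at 1188, 586, 1772 and 1670 CPM in WT and at 1070, 598, 35.2 and 989 CPM in KO-IEC (-0.95 ± 0.76, adjusted p = 0.405). Within the low and middle mitochondrial rRNA classes the difference of mean log2 levels was -0.89 and 0.16 for Defa24. It was -1.15 and 0.32 for Defa30, and -2.07 and -0.76 for Defa22.

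Defa32 had the largest log2 fold change of the members in crypts. Its level was 51.9, 23.9, 125 and 104 CPM in WT against 23.8, 16.4, 0.636 and 4.78 CPM in KO-IEC. All 4 KO-IEC libraries were below all WT libraries, by a narrow margin between WT replicate 2 and KO-IEC replicate 1. The difference was -2.74 ± 0.80 (unadjusted p = 0.00712, adjusted p = 0.0625 by edgeR's quasi-likelihood test). Defa32 has the same coding sequence as Defa20, which was at -1.12 ± 0.84 with overlapping groups, so the split of reads between this pair is uncertain. The share of Defa reads on Defa2, Defa20, Defa32 and Defa33 together was 5.31 to 11.1% in WT crypts and 1.16 to 8.61% in KO-IEC crypts, and these ranges overlapped.

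Mmp7, the protease that activates the alpha-defensin precursors, was at 151, 131, 230 and 198 CPM in WT crypts and at 144, 90.2, 25.8 and 180 CPM in KO-IEC crypts. The groups overlapped and the log2 fold change was -0.69 ± 0.47 (adjusted p = 0.330, edgeR's quasi-likelihood test). Lyz1 was at 4834, 3873, 7786 and 5389 CPM in WT and at 3562, 2924, 825 and 2923 CPM in KO-IEC. Every KO-IEC library was below every WT library, and unlike the alpha-defensin sum, KO-IEC replicate 4 was also low. The log2 fold change was -1.10 ± 0.40 (adjusted p = 0.103, edgeR's quasi-likelihood test). The difference of mean log2 levels was -1.24 within the low and -0.88 within the middle mitochondrial rRNA class. Under DESeq2's Wald test the adjusted p of Lyz1 was under the threshold, as were those of Defa32 and Lyz2. Lyz2, the lysozyme of macrophages, was low, at 1.36 to 4.50 CPM in WT against 0.634 to 1.70 CPM in KO-IEC.

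Among the other antimicrobial products in crypts, Ang4, a secreted ribonuclease, was the single member above 0. It stood at 645, 539, 970 and 672 CPM in WT and at 941, 490, 79.9 and 3002 CPM in KO-IEC. The KO-IEC libraries spanned a far wider range than WT, with replicate 4 above and replicate 3 below every WT library. The log2 fold change of 0.68 ± 0.79 (adjusted p = 0.576) became -0.49 without KO-IEC replicate 4. Itln1, a lectin that binds microbial sugars, was at 2024 to 3483 CPM in WT against 378 to 2634 CPM in KO-IEC (-0.61 ± 0.48, adjusted p = 0.405). Mptx2, a pentraxin, was at 510 to 1145 CPM in WT against 87.3 to 740 CPM in KO-IEC (-0.71 ± 0.54, adjusted p = 0.384). Pla2g2a, a secreted phospholipase A2 annotated here as a polymorphic pseudogene because C57BL/6 mice carry a frameshift, was at 37.3 to 77.5 CPM in WT against 10.9 to 42.3 CPM in KO-IEC (-0.89 ± 0.37, adjusted p = 0.131). None of these 4 separated the genotypes. Within the low and middle mitochondrial rRNA classes the difference of mean log2 levels was -0.95 and 2.16 for Ang4. It was -1.24 and 0.32 for Itln1, -1.25 and 0.33 for Mptx2, and -1.06 and -0.40 for Pla2g2a.

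The last 3 members are not known as antimicrobial proteins. Copz2, a coat subunit of COPI vesicles, was at 3.49, 3.11, 3.28 and 2.73 CPM in WT crypts and at 2.22, 1.99, 0.848 and 2.11 CPM in KO-IEC crypts. The genotypes did not overlap, and the log2 fold change was -0.80 ± 0.29 (adjusted p = 0.0997, edgeR's quasi-likelihood test). Habp2, a secreted serine protease, was at -0.68 ± 0.45 and Nupr1, a stress-response regulator of transcription, at -0.97 ± 0.44, both with overlapping groups.

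Marker lists of other cell types also moved between the crypt libraries, and their part in these results was not tested. The summed level of 7 enterocyte markers was 1901 to 8201 CPM in WT against 6735 to 15410 CPM in KO-IEC, with KO-IEC replicates 3 and 4 highest. That of 4 proximal small-intestinal markers, mainly the lactase gene Lct, was 290 to 690 CPM in WT against 893 to 2345 CPM in KO-IEC, and replicate 3 of KO-IEC was the highest. That of 3 distal markers was 43.6 to 87.6 CPM in WT against 16.8 to 152 CPM in KO-IEC, with replicate 3 of KO-IEC the lowest. That of 5 stem cell markers was 1493 to 2339 CPM in WT against 940 to 1506 CPM in KO-IEC, again lowest in replicate 3. Of these, Lgr5 and Ascl2 were lower by the test. The summed levels of 7 goblet cell markers were 6053 to 8785 CPM in WT against 8086 to 12638 CPM in KO-IEC, though their median log2 fold change was 0.015. No enterocyte, proximal, distal or goblet cell marker of these lists was called by the test, against 6.96% of all genes.

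In organoids of the KO-IEC experiment most of the tested Paneth cell products had a negative log2 fold change, again with no call. Of the 32 genes, 25 passed the filter. Those that did not were Defa25, Defa27, Defa28, Defa31, Defa33, Defa35 and Lyz2, of which Defa33 and Lyz2 had 0 counts in all 4 libraries. The edgeR quasi-likelihood test called none of the 25 after Benjamini-Hochberg adjustment, and it called 0.00717% of all 13938 genes tested, which is 1 gene. An unadjusted p under 0.05 was reached by 15 of the 25 members and by 4.66% of all genes. The log2 fold change was below 0 in 23 members, against 51.2% of all genes. In 19 of the 25, both KO-IEC libraries were below both WT libraries, against 19.4% of all genes in that direction. Members that passed the filter through WT alone had to differ in this direction. Defa32, for example, had 14 and 19 counts in WT and 4 and 1 in KO-IEC. The median was -0.97 over the members and -0.01 over all genes. The adjusted p was 0.856 for all members but Copz2 (0.987) and Nupr1 (0.953).

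The summed alpha-defensin level was 1193 and 2010 CPM in WT organoids and 812 and 1055 CPM in KO-IEC organoids. Both KO-IEC libraries were below both WT libraries, with means of 934 ± 171 and 1602 ± 577 CPM (SD, n = 2 each) and a log2 difference of -0.78. Defa24 was at 744 and 1360 CPM in WT and at 536 and 798 CPM in KO-IEC, the only tested alpha-defensin whose genotypes overlapped (-0.66 ± 0.37). Defa30 was at 222 and 362 CPM in WT and at 158 and 141 CPM in KO-IEC (-0.97 ± 0.28). Some less abundant copies had larger differences, while others, among them Defa5, Defa17 and Defa34, had smaller ones than Defa30. Defa29 was at 15.5 and 12.5 CPM in WT and at 1.51 and 2.84 CPM in KO-IEC (-2.69 ± 0.42), and Defa20 was at 40.9 and 47.1 CPM in WT and at 15.9 and 11.4 CPM in KO-IEC (-1.68 ± 0.25). For Defa2, 1 WT library held most of the level, with 9.96 and 1.92 CPM in WT against 0.783 and 0.675 CPM in KO-IEC.

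Pla2g2a had the largest difference of all members in KO-IEC organoids. It was at 7.89 and 10.1 CPM in WT, from 137 and 152 counts, and at 1.27 and 0.675 CPM in KO-IEC, from 21 and 10 counts. Both KO-IEC libraries were well below WT (-3.19 ± 0.45). Lyz1 was at 818 and 1565 CPM in WT and at 583 and 858 CPM in KO-IEC, and the higher KO-IEC library exceeded the lower WT library (-0.73 ± 0.38). Ang4 was at 178 and 149 CPM in WT and at 102 and 98.3 CPM in KO-IEC (-0.71 ± 0.17), and Itln1 at 651 and 928 CPM in WT and at 526 and 580 CPM in KO-IEC (-0.51 ± 0.23), both without overlap. Habp2 likewise did not overlap, at 11.6 and 15.7 CPM in WT and at 8.80 and 7.50 CPM in KO-IEC. Mmp7 was at 35.5 and 44.1 CPM in WT and at 38.0 and 13.8 CPM in KO-IEC, so that the genotypes overlapped. Mptx2, Copz2 and Nupr1 overlapped too, and Nupr1 was highest in KO-IEC replicate 2, at 54.0 CPM.

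The KO-IEC organoid replicates were unlike each other in other cell types. Stem cell markers summed to 2426 and 3593 CPM in WT, and to 1468 and 336 CPM in KO-IEC replicates 1 and 2. Goblet cell markers summed to 1780 and 2093 CPM in WT, and to 1872 and 7034 CPM in KO-IEC replicates 1 and 2. Enterocyte markers summed to 5454 and 9435 CPM in WT, and to 3806 and 12008 CPM in KO-IEC. Replicate 2 of KO-IEC thus had the fewest stem cell and the most goblet cell and enterocyte transcripts of the 4 libraries. The alpha-defensin sum was lower than in either WT library in both replicates. Without KO-IEC replicate 2, 25 of the 26 members then tested were below 0, with a median of -0.91.

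In KO-CAG organoids most Paneth cell products were higher than in WT, the opposite direction to the other experiments. Of the 27 members that passed the filter, 20 rose and 2 fell at an adjusted p of 0.05 (edgeR's quasi-likelihood test), against 18.1% of 13598 genes called higher and 13.4% called lower. Defa25, Defa27, Defa28, Defa33 and Lyz2 did not pass the filter, each with at most 10 counts in any library. Among those that passed, 12 of 18 alpha-defensins and 8 of 9 other products rose. A 2-fold increase was reached by 11 members, namely Defa3, Defa21, Defa22, Defa32, Defa34, Defa35, Defa36, Ang4, Mmp7, Mptx2 and Pla2g2a, against 6.36% of all genes. Both KO-CAG libraries were above both WT libraries in 22 of the 27, against 35.5% of all genes. A member that passed the filter through KO-CAG alone was favoured to differ in this direction. Defa35, for example, had 13 and 6 counts in WT and 20 and 32 in KO-CAG. The members' median log2 fold change was 0.94, against 0.00 for all genes. These calls rest on a very small spread within this experiment, a biological coefficient of variation of 0.0815 over all genes, against 0.280 for KO-IEC organoids and 0.231 for crypts. In a fit of all 16 libraries that shares 1 estimate of the spread, 1 of the members was called in KO-CAG.

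The summed alpha-defensin level was 3942 and 3715 CPM in WT against 6151 and 5968 CPM in KO-CAG. Both KO-CAG libraries were above both WT libraries, with means of 3828 ± 161 and 6060 ± 130 CPM (SD, n = 2 each) and a log2 difference of 0.66. Defa24 rose least among the alpha-defensins called higher, from 2511 and 2380 CPM in WT to 3589 and 3576 CPM in KO-CAG (0.55 ± 0.09, adjusted p = 0.00136). Defa30 was at 769 and 758 CPM in WT and at 1404 and 1369 CPM in KO-CAG (0.86 ± 0.09, adjusted p = 9.85e-05). Defa22 rose more, from 75.2 and 73.3 CPM to 212 and 190 CPM (1.43 ± 0.09, adjusted p = 6.08e-06), as did its near copy Defa21 (1.31 ± 0.09). The share of Defa21 and Defa22 among Defa reads was 3.36 to 3.68% in WT and 5.76 to 5.79% in KO-CAG. Defa34 was at 48.1 and 51.1 CPM in WT and at 138 and 132 CPM in KO-CAG (1.45 ± 0.09, adjusted p = 5.52e-06).

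Not all copies rose. Defa29, one of the 4 copies with mostly unique reads, fell from 21.6 and 19.7 CPM in WT to 12.2 and 10.9 CPM in KO-CAG (-0.84 ± 0.16, adjusted p = 0.00319). Defa2, which has no unique stretch, was at 17.9 and 17.5 CPM in WT and at 11.5 and 7.88 CPM in KO-CAG (-0.89 ± 0.20, adjusted p = 0.00784). Summed with its near-identical copies Defa20, Defa32 and Defa33, however, it rose (0.70, adjusted p = 0.000242, edgeR's quasi-likelihood test). The fall of Defa2 alone is therefore uncertain, since it depends on how reads were split between these copies. Defa26, also with mostly unique reads, was at 48.4 and 46.9 CPM in WT and at 44.9 and 41.8 CPM in KO-CAG (-0.14 ± 0.10, adjusted p = 0.317), so that the libraries did not overlap but the test was not passed. Defa5, Defa17 and Defa31 did not pass the test either. Defa17 was at 213 and 138 CPM in WT and at 257 and 154 CPM in KO-CAG, with overlap, whereas Defa3, with the same coding sequence, was at 5.66 and 4.66 CPM in WT and at 11.3 and 26.3 CPM in KO-CAG.

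Of the other products, Mmp7 was at 67.0 and 64.5 CPM in WT and at 205 and 181 CPM in KO-CAG (1.55 ± 0.09, adjusted p = 5.52e-06, edgeR's quasi-likelihood test). Lyz1 was at 1028 and 853 CPM in WT and at 1898 and 1755 CPM in KO-CAG (0.96 ± 0.11, adjusted p = 0.000188). The activating protease and the lysozyme thus rose together with most alpha-defensins. Ang4 was at 96.4 and 76.2 CPM in WT and at 367 and 298 CPM in KO-CAG (1.94 ± 0.13, adjusted p = 9.34e-06). Pla2g2a was at 7.59 and 8.81 CPM in WT and at 34.5 and 33.9 CPM in KO-CAG (2.06 ± 0.15, adjusted p = 1.57e-05). These were the 2 largest log2 fold changes in the experiment among the members, and neither gene's libraries overlapped. Itln1 was at 1445 and 1414 CPM in WT and at 2463 and 2251 CPM in KO-CAG (0.72 ± 0.09, adjusted p = 0.000367), and Mptx2 at 55.4 and 53.6 CPM in WT and at 127 and 118 CPM in KO-CAG (1.16 ± 0.09, adjusted p = 1.66e-05). Nupr1 (0.94 ± 0.12) and Habp2 (0.72 ± 0.14) rose as well. Copz2 was at 0.723 and 1.81 CPM in WT and at 2.50 and 2.69 CPM in KO-CAG (1.05 ± 0.45, adjusted p = 0.0990).

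**Figure D3:**
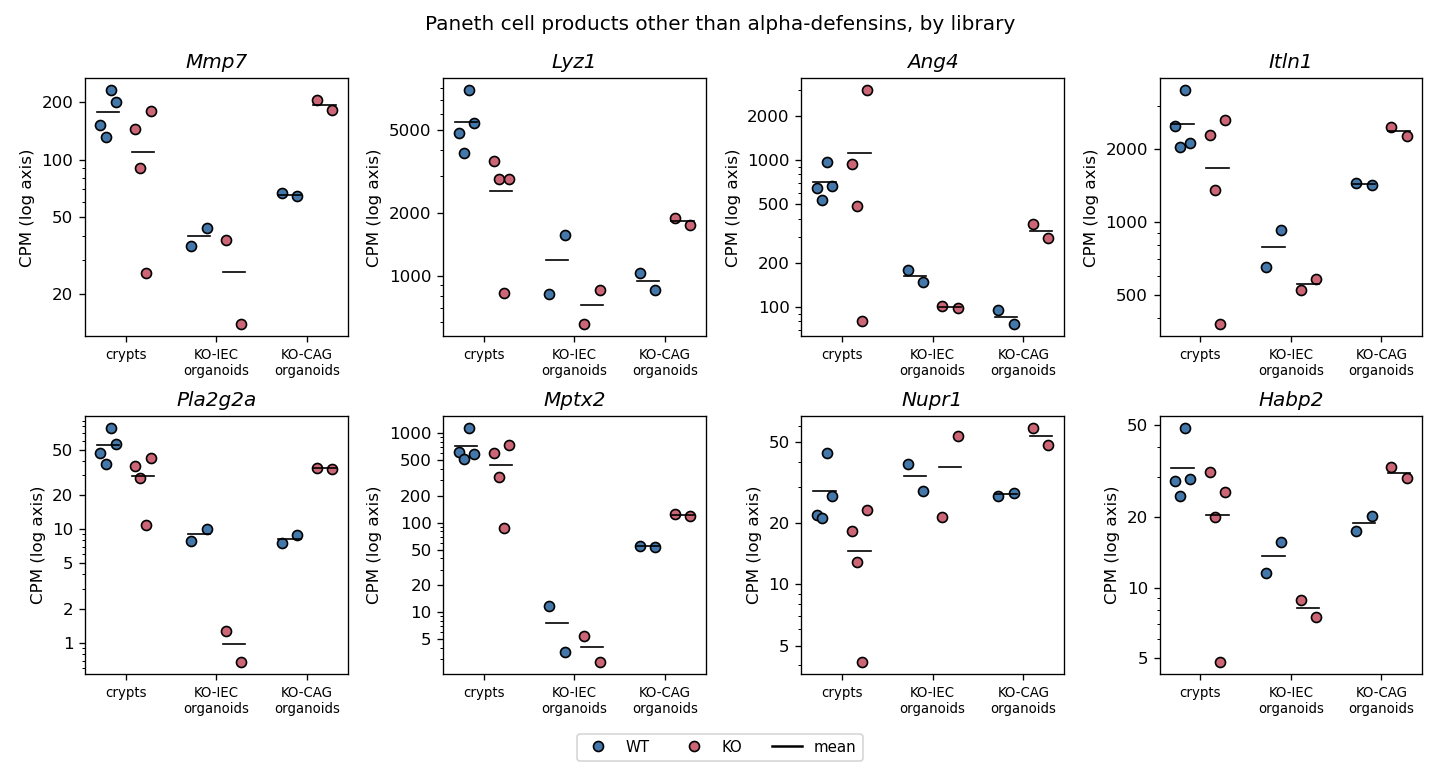
Points give the level (CPM, log y axis, a scale per panel) of 8 products in each library by experiment, WT in blue and KO in red, with lines at the means. Mmp7, Lyz1, Ang4, Itln1, Pla2g2a, Mptx2, Nupr1 and Habp2 are all higher in both KO-CAG libraries than in both WT libraries, while in KO-IEC organoids Pla2g2a is at 1.27 and 0.675 CPM against 7.89 and 10.1 CPM in WT.

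Markers of enterocytes, goblet cells and enteroendocrine cells rose in the same KO-CAG libraries, and their part in the result was not tested. Enterocyte markers summed to 3950 to 4353 CPM in WT against 9217 to 11581 CPM in KO-CAG, and 6 of 7 rose. All 7 goblet cell markers and all 3 enteroendocrine markers rose, with sums of 5157 to 5378 CPM in WT against 8243 to 8872 CPM in KO-CAG for goblet cells. Of the tuft cell markers 2 were tested and 0 rose, with sums of 30.4 to 33.6 CPM in WT against 32.8 to 40.0 CPM in KO-CAG. Stem cell markers summed to 2819 to 3327 CPM in WT against 2314 to 2713 CPM in KO-CAG, and 2 of 5, Lgr5 and Smoc2, fell. Among all genes tested in this experiment, 18.1% were called higher and 13.4% lower.

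The difference in the effect of Cul4b loss between experiments was tested in 1 fit of all 16 libraries, in which 30 members and 15585 genes were tested. Of these members, Defa33 had 0 counts in all organoids and Lyz2 had 0 in those of the KO-IEC experiment. Contrasts that use those groups cannot inform on these genes, although both are counted among the 30 and in the medians. Between KO-IEC and KO-CAG organoids 4 of 30 members had an unadjusted p under 0.05, and 1 member was called, against 0.385% of all genes. This was Pla2g2a, whose log2 effect was lower in KO-IEC, by a difference of -5.22 ± 0.77 (adjusted p = 0.0133, edgeR's quasi-likelihood test). Between crypts and KO-CAG organoids no member was called, against 0.372% of all genes, and 10 of 30 members had an unadjusted p under 0.05. Pla2g2a came nearest, with a difference of -2.94 ± 0.59 (adjusted p = 0.0519). Between crypts and KO-IEC organoids no member was called, against 0.00642% of all genes, and 1 member, Pla2g2a, had an unadjusted p under 0.05. For these contrasts the share of all genes at an unadjusted p under 0.05 was not taken, so these counts have no background beside them. The members' median difference was -2.05 for KO-IEC against KO-CAG organoids, -1.85 for crypts against KO-CAG organoids and -0.01 for crypts against KO-IEC organoids. For all genes these medians were -0.03, 0.00 and 0.01. So the opposite signs of the other members were not shown to differ gene by gene.

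**Figure D4:**
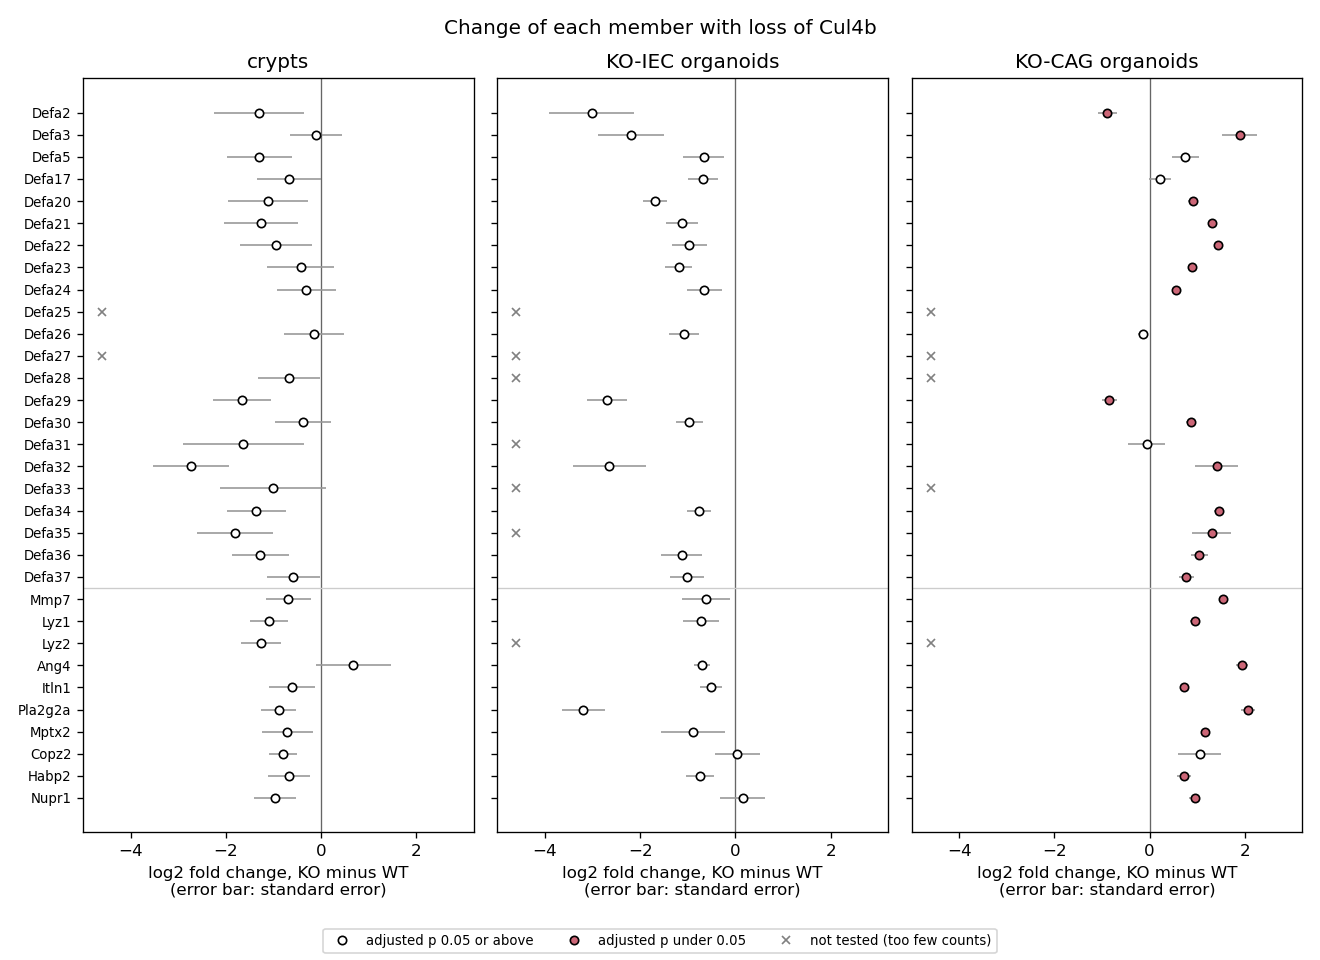
Points give the log2 fold change (KO minus WT, x axis) with its standard error for each member (y axis) in the 3 experiments, filled where the adjusted p is under 0.05 and marked with a cross where the gene was not tested. In crypts and KO-IEC organoids 29 of 30 and 23 of 25 tested members lie left of 0 with none filled, and in KO-CAG organoids 20 filled points lie to the right and 2 to the left.

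Other genes of the Paneth cell program, 31 in all with 27 tested in each experiment, gave few calls outside KO-CAG organoids. This list holds transcription and Wnt components, niche ligands and further secreted proteins. In crypts 1 of the 27 rose and 1 fell, against 6.96% of all genes called in either direction, and the median was -0.10. Tgfa, a ligand of the epidermal growth factor receptor, rose by 0.60 (log2), and Reg3g, an antibacterial lectin also made by enterocytes, fell by 1.38. The Reg3g level was 2500 ± 591 CPM in WT against 963 ± 376 CPM in KO-IEC (SD, n = 4 each, adjusted p = 0.0460). In KO-IEC organoids none passed the test, against 0.00717% of all genes, and the median was 0.00. In KO-CAG organoids 8 rose and 4 fell, against 18.1% of all genes called higher and 13.4% called lower, with a median of 0.16. Reg3b, the lectin paired with Reg3g, rose from a mean of 119 CPM in WT to 1386 CPM in KO-CAG (3.54 ± 0.19, adjusted p = 4.17e-06). Slc30a2, the zinc transporter of Paneth cell granules, rose by 1.87. Fzd5, the Wnt receptor that Paneth cell maturation depends on, was 205 CPM in WT against 138 CPM in KO-CAG (-0.58 ± 0.10, adjusted p = 0.00221), and Tcf7l2, which encodes TCF4, was at -0.32 ± 0.11 (adjusted p = 0.0447). Mptx1, a paralog of Mptx2, fell by 1.31 on the log2 scale while Mptx2 rose by 1.16.

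Gene models that resemble the alpha-defensins were outside the set, and they took part of the family's reads. These were 17 pseudogene rows and 6 rows under provisional names that RefSeq lists as alpha-defensins. With these added, the log2 difference of the family sum was -0.58 in crypts, -0.80 in the KO-IEC organoid experiment and 0.64 in that of KO-CAG. AY761184, listed by RefSeq as Defa39, was at 868 to 1683 CPM in WT crypts and 202 to 1181 CPM in KO-IEC crypts, with overlap. In KO-CAG organoids it was at 135 to 152 CPM in WT against 135 to 144 CPM in KO-CAG (-0.05 ± 0.09, adjusted p = 0.721), whereas Gm14851, listed as Defa38, rose from 187 to 195 CPM in WT to 272 to 276 CPM in KO-CAG (0.52 ± 0.08, adjusted p = 0.00108).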

How the data were processed

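RNA-seq counts per gene were deposited by the authors in 3 tables, for crypts (8 libraries), KO-IEC organoids (4) and KO-CAG organoids (4). The submitters' processing notes name HISAT2 2.0.5 and featureCounts 1.5.0-p3. The genome build, strand and multi-mapping settings are not given in the sources used here, but the positions of all 32 members match GENCODE M21 on GRCm38. Gene length was taken from the deposited tables. The members and lists were chosen with earlier results of these data known. All members are named.

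Each experiment was fitted on its own with edgeR 4.0.16 (R 4.3.3): filterByExpr, TMM scaling, quasi-likelihood F-test of KO against WT, two-sided, and Benjamini-Hochberg adjustment over all genes tested, with a threshold of 0.05. The study's fold threshold of 2 and DESeq2 1.42.0, the study's tool, were alternatives. Differences between experiments were contrasts in 1 fit of 16 libraries. Family sums were added as CPM, with no test. Mitochondrial rRNA classes were set at 100 and 2000 CPM. A count of 3 in a library, the limit that a count of 0 allows, is 0.178 to 0.408 CPM, for counting error only. Scripts were tested on simulated counts. Coding sequences and the 100-base stretches come from GENCODE M21 transcripts, and promoter sequences from RefSeq on GRCm38.p6.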

Additional observations from a re-analysis of the deposited data

Results flagged for a closer look

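Of 62 groups of 4 libraries whose extremes were examined, 3 held a library far from the others, where chance gives about 5%. Defa31, whose coding sequence is that of Defa23, was at 582 CPM in WT crypt replicate 4 and at 16.4 to 34.3 CPM in the other WT crypts. Defa33, whose coding sequence is that of Defa2, was at 4.97 CPM in KO-IEC crypt replicate 1 and at 0 to 0.840 CPM in the others. Mptx2 was at 1145 CPM in WT crypt replicate 3 and at 510 to 612 CPM in the other WT crypts. The effect of Cul4b loss on Pla2g2a differed between KO-IEC and KO-CAG organoids by -5.22 (log2, adjusted p = 0.0133, edgeR's quasi-likelihood test), lower in both KO-IEC libraries and higher in both KO-CAG libraries than in their WT.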

How the results depend on the processing

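The number of called members depended on the settings more than the family sum did. In crypts (0 called) it was 3 with no filter, 3 under DESeq2's Wald test and 1 with all 16 libraries in one fit. In KO-IEC organoids (0 called) it was 8 with no filter and 3 under DESeq2. In KO-CAG organoids (22 called) it was 11 with the 2-fold threshold, 1 with all 16 libraries and 13 of 15 with near-identical copies summed, an alternative chosen after seeing the data. Leaving out 1 library at a time gave 0 to 3 calls in crypts (3 without KO-IEC replicate 1), 0 to 9 in KO-IEC organoids (9 without KO-IEC replicate 1, which leaves 1 sample in that arm, assumed to vary like the others) and 20 to 23 in KO-CAG organoids. Over the same omissions the family sum ranged from -1.05 to -0.22 in crypts, from -1.11 to -0.37 in KO-IEC organoids and from 0.61 to 0.69 in KO-CAG organoids, and its direction was kept under every setting run. The cause of these shifts was not tested.

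Of the differences between experiments, crypts against KO-CAG organoids had 1 call with DESeq2 size factors, 24 with no filter and 0 to 1 when a library was left out, 1 without KO-IEC crypt replicate 3 or 4 or without either KO-IEC organoid. KO-IEC against KO-CAG organoids had 21 with no filter and 0 to 1 when a library was left out. It was 0 without WT or KO-IEC replicate 2 or without any one of the 4 libraries of the KO-CAG experiment, where the adjusted p of Pla2g2a was 0.0590 to 0.133. Crypts against KO-IEC organoids had 7 with no filter and 0 to 0 when a library was left out.

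Some single genes that were not called changed sign, among them Ang4 in crypts (0.68 with all libraries) and Mptx2 in KO-IEC organoids (-0.89) when 1 library was left out. In crypts Ang4 was -0.074 with a replicate block and ranged from -0.49 without KO-IEC replicate 4 to 1.08 without KO-IEC replicate 3. Over the same omissions Defa24 ranged from -0.98 without KO-IEC replicate 4 to 0.054 without replicate 3, and Defa3 from -0.46 to 0.26 (0.15 without WT replicate 3). Defa3 was also 0.18 with the mitochondrial rRNA class as covariate and 0.16 without its high class. In KO-IEC organoids Copz2 was -0.0059 with library size alone and ranged from -0.059 without WT replicate 1 to 0.13 without WT replicate 2, and Mptx2 from -1.50 without WT replicate 2 to 0.18 without WT replicate 1. Nupr1 was -0.07 without WT replicate 2 -0.66 without KO-IEC replicate 2, against 0.66 without KO-IEC replicate 1. In KO-CAG organoids Defa17 ranged from -0.21 without KO-CAG replicate 1 to 0.56 without WT replicate 1.

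Replicates share numbers, but the correlations of same-numbered crypts' deviations were -0.04, 0.18, -0.40 and 0.43, so the numbers did not pair them, and the organoids have only 2 pairs an experiment. With a replicate block 0, 0 and 23 members were called. The family sum was then taken as the mean difference in log2 level between same-numbered libraries, which was -1.02, -0.74 and 0.66. This is a mean of logs and not the log2 ratio of means given elsewhere. With equal groups the block leaves it as it would be unpaired, so it does not show an effect of the block. Sums of members with near-identical proteins were not run. Genes at a few counts, such as Defa25, Defa27 and Defa28, are limited by depth.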
